A study of Mus musculus with 18 samples.

Results

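The genes described here encode the nuclear subunits of the 5 complexes of oxidative phosphorylation. They were taken by symbol, as every entry beginning Ndufa, Ndufb, Ndufc, Ndufs or Ndufv followed by a digit, Uqcr, Cox4 to Cox8 or Atp5, together with Cyc1 and the 4 Sdh genes, and they numbered 88 of 19518 genes listed. Of these, 38 were counted in complex I, 4 in complex II, 9 in complex III, 20 in complex IV and 17 in complex V. Ndufa4 and its relative Ndufa4l2 were placed in complex IV, where the Ndufa4 protein resides. Not every entry is a distinct subunit, since Ndufb4b, Ndufb4c and Ndufa11b are copies of subunit genes, Cox7a2l is a supercomplex assembly factor and Atp5s is a coupling factor. Subunits encoded in mitochondrial DNA were not analysed here.

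Transcripts were measured by RNA-seq in whole kidney of ICR mice, an outbred stock, aged 10 weeks, with 3 libraries in each of 6 groups. One group received AOS at 10 mg/kg without the diet (AOS), and 3 groups received a high fat diet (HFD) with AOS10mg/kg-FMT (HFD+AOS-FMT), with control-FMT (HFD+control-FMT) or with AOS at 10 mg/kg (HFD+AOS). The remaining groups were the high fat diet alone (HFD) and control. AOS and FMT are written as the labels have them. The series asks how FMT affects the kidney of mice on a high fat diet. Whether each library of a group is a different animal is not stated, so p-values reflect the spread between these libraries, and that spread may be technical.

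Oxidative phosphorylation passes electrons from NADH (complex I) and succinate (complex II) through ubiquinone to complex III, then through cytochrome c to complex IV, which reduces oxygen. Complexes I, III and IV pump protons, and complex V, the ATP synthase, uses the proton gradient to make ATP. Core subunits carry the redox centres, the catalytic sites and the proton path, while supernumerary subunits surround them and serve assembly and stability. The proximal tubule of the kidney, rich in mitochondria, relies on this pathway to drive reabsorption.

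The promoters of 5 members are shown because Atp5e, Atp5k and Uqcrh had the smallest p-values among the members in the comparison of HFD+AOS-FMT with control, and because Cox8a and Cox8b encode the widely expressed and the tissue-restricted isoform of 1 complex IV subunit. Each is the 250 bases upstream of the RefSeq transcription start in GRCm38.p6, written 5′ to 3′ on the minus strand, where all 5 genes lie. They span chr2:174464102-174464351 for Atp5e, chr5:108434400-108434649 for Atp5k, chr4:116075071-116075320 for Uqcrh, chr19:7217617-7217866 for Cox8a and chr7:140900447-140900696 for Cox8b. Capitals mark a match to CCGGAAG or its reverse complement (the core of sites for ETS factors such as GABP) in Atp5e and Uqcrh, and to GCGCA and GCGC with any 1 base between them (the site of nuclear respiratory factor 1, NRF1) in Atp5k.
Atp5e: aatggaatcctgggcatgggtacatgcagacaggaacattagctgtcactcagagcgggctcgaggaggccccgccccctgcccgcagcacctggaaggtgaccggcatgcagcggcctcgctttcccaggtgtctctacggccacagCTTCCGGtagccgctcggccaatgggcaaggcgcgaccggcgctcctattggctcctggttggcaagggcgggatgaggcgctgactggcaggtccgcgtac
Atp5k: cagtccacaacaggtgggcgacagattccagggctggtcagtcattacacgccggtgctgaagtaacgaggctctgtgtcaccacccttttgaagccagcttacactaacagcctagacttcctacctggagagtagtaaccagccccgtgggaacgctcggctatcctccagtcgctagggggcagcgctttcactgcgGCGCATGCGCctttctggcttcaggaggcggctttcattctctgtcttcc
Uqcrh: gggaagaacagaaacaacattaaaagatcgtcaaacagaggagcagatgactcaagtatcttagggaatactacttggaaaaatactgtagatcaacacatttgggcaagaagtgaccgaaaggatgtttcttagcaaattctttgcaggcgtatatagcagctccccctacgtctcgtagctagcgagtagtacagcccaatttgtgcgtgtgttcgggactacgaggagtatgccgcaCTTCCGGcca
Cox8a: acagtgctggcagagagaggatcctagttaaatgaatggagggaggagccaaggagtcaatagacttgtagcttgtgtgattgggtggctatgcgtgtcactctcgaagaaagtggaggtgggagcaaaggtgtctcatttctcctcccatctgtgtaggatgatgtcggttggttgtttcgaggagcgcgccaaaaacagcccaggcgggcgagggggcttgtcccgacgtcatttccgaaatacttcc
Cox8b: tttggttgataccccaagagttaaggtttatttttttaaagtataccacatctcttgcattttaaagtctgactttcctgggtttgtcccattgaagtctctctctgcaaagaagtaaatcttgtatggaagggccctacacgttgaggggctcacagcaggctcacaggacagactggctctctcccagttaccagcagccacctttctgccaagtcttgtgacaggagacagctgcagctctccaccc

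RefSeq promoters were at hand for 67 of the 88 genes. On either strand of the 250 bases upstream, the NRF1 letters were found in 12 of 67 promoters (17.9%), against 3.9% of 27025 promoters of all genes. CCGGAAG was found in 11 (16.4%), against 7.1% of all promoters. The other letters searched were AANATGGCG, a YY1 site, in 1 member promoter (1.5%, against 1.1% of all), and TATAAA in 6 (9.0%, against 13.0% of all). The promoters of Cox8a and Cox8b did not hold any of the 4 motifs. In Atp5k the RefSeq start lies 49 bases inside the gene by GENCODE, the annotation used for gene coordinates here. Its NRF1 letters begin 50 bases upstream of the RefSeq start, so they lie almost wholly inside the GENCODE gene. The 27025 promoters were neither limited to genes tested here nor matched for G and C content. What part these have in the shares was not tested. All these matches describe letters and no binding was measured.

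The deposited values are normalized and their unit is not stated, so depth is unknown, and no count-based interval can be given. Their smallest steps above 0 depended on length (median 0.12 for 667 genes with transcripts under 1000 bases and 0.01 for 438 over 5000 bases, among genes at 0 in some library), as they would in values scaled by length. The summed signal per library was 637355 to 721198. Control replicate 3 stood apart. Kap, an androgen-regulated proximal tubule gene, took 2.48% of its signal against 17.2% to 22.9% in the other 17 libraries, 7 adrenal gland markers summed there to 969.8 against at most 4.28 elsewhere, and its correlations with other libraries were 0.948 to 0.963. Transcripts of testis germ cells other than Smcp summed to 29.0 to 41.5 in the 3 control libraries and 27.35 to 27.47 in HFD replicates 1 and 2, and to at most 0.3 in the other 13. Proximal tubule markers were high in every library (summed signal of 7 genes 3996 to 6212), which fits the labelled tissue. Their sum was 5202 to 5446 in HFD, 5801 to 6212 in HFD+AOS and 5504 to 6015 in HFD+AOS-FMT, and lowest in control replicate 3. Podocyte markers summed to 98.1 in control replicate 3, 66.0 in HFD+AOS-FMT replicate 2 and at most 51.1 elsewhere. For collecting duct markers these sums were 351, 225 and at most 156. What part cell type shares have in the differences was not tested.

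Together the 88 genes took 5.45% to 7.75% of all signal, with the top value in control replicate 3. Levels are compared between genes on the deposited scale. In complex V, Atp5b, the catalytic beta subunit (chromosome 10, 128083273 to 128090391, GRCm38), had the highest mean of all members, 2121, and ranked 17 of 19518 genes. It was also steady, from 2034 in HFD+AOS replicate 3 to 2206 in HFD replicate 2, a 1.08-fold range over 18 libraries. Atp5j2, a supernumerary subunit of the membrane sector, averaged 1121. In complex IV, Cox8a and Ndufa4, both small supernumerary subunits, averaged 2008 and 1824. In complex III, Uqcrb and Uqcr10, which flank the membrane core, averaged 935 and 866. In complex I, Ndufb4 and Ndufa3, small subunits of the membrane arm, averaged 804 and 744. In complex II, Sdhb, the iron-sulfur subunit, averaged 437 and Sdhc, a membrane anchor, 326. Mean signal was above 100 for 74 of the 88 members and above 1000 for 9, of which 7 belong to complex IV and 2 to complex V. Among the entries that are no distinct subunit, the copy Ndufb4c averaged 160.7, Ndufb4b 3.12, Cox7a2l 89.7 and Atp5s 9.61.

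**Figure D1:**
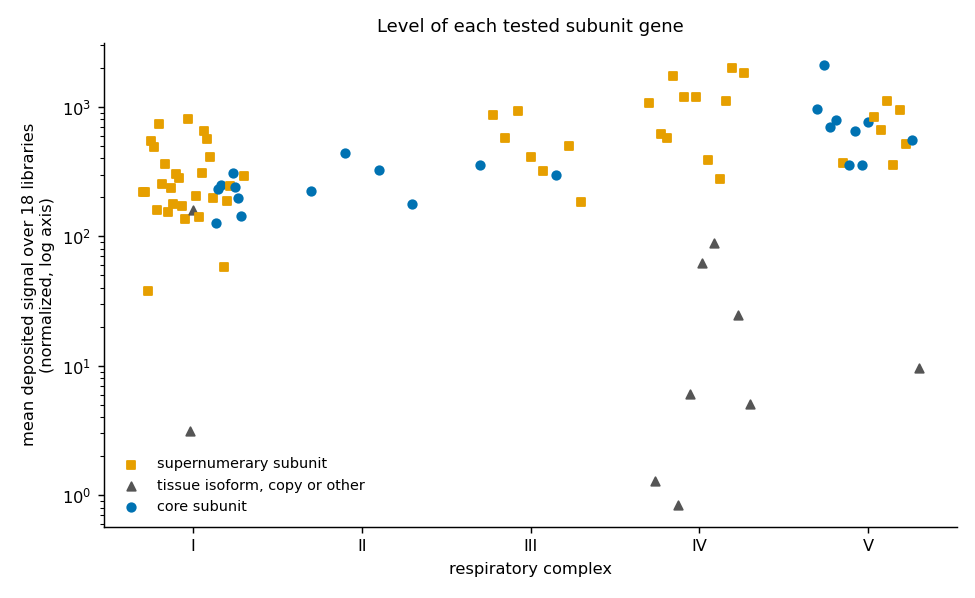
Mean deposited signal of each of the 85 tested subunit genes over 18 libraries (log axis), by complex; circles are core subunits, squares supernumerary subunits and triangles tissue isoforms, gene copies and genes that encode no subunit. Most members lie between 100 and 1000, and the highest are Atp5b at 2121 and Cox8a at 2008.

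Of the 88 members, 85 passed the filter (3 libraries or more with a value of 1 or higher) and were tested among 12031 genes. The other 3 were near 0, with highest values of 0.71 for the testis isoform Cox7b2, 0.49 for the isoform Cox8c and 0.19 for the copy Ndufa11b. Differences below are of log2(value + 1), which understates changes of low genes, and adjusted p-values are from limma with Benjamini-Hochberg adjustment over the 12031 genes. In bulk tissue, fewer cells of a type and less RNA per cell cannot be told apart. The 7 comparisons share libraries, chiefly those of HFD and control, so their values are set side by side and not counted as separate support.

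In HFD+AOS-FMT kidneys, compared with control kidneys, 6 members fell and 0 rose: Atp5e, Atp5k and Atp5g1 of the ATP synthase, Uqcrh of complex III, and Ndufb7 and Ndufa2 of complex I. They are 6 of 85 tested, where 1.33% of all genes tested were called lower and 0.989% higher. At an unadjusted p under 0.05, 32 members (12.6% of all genes) were lower and 1 (6.41% of all genes) was higher. Of all 85 members, 74 had negative and 11 positive log2 differences, where 63.1% of all genes had negative ones. By the labels these groups differ in the diet as well as in AOS10mg/kg-FMT, and these cannot be told apart in this comparison. Against HFD and against HFD+control-FMT, which share the diet with HFD+AOS-FMT, 0 members were called.

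Atp5e encodes the epsilon subunit of the ATP synthase stalk (chromosome 2, 174461072 to 174464105) , and its promoter, shown above, holds the ETS letters. It stood at 213, 204 and 294 in the HFD+AOS-FMT libraries, against 528, 395 and 588 in the control libraries. Every HFD+AOS-FMT library lay below every control library. The means were 237 ± 49.9 in HFD+AOS-FMT and 504 ± 99.1 in control (SD, n = 3 each), a log2 difference of -1.08 (SE 0.18, limma adjusted p = 0.00965).

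Atp5k encodes subunit e, which lies at the dimer interface of the ATP synthase (chromosome 5, 108433244 to 108434448). It stood at 298, 251 and 285 in HFD+AOS-FMT libraries, against 430.1, 351 and 409 in control libraries. The groups did not overlap, and the log2 difference was -0.51 (SE 0.11, limma adjusted p = 0.0269). Atp5g1 is 1 of 3 genes for the same mature c subunit of the rotor ring (chromosome 11, 96068852 to 96075670). It stood at 604, 563 and 526 in HFD+AOS-FMT libraries, against 697, 674 and 915 in control libraries, with the last of these, control replicate 3, well above all others. Its log2 difference was -0.42 (SE 0.10, limma adjusted p = 0.0454). Atp5k and Atp5g1 each have 1 pseudogene copy at 95% identity or more, so their reads could have been split or shared in counting, and the counting method is not given.

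Uqcrh, the hinge protein that aids electron transfer to cytochrome c (chromosome 4, 116066965 to 116075071), had little spread. It stood at 461, 445 and 457 in HFD+AOS-FMT libraries, against 541, 532 and 569 in control libraries. The difference was small beside that of Atp5e, at -0.27 on the log2 scale (SE 0.06, limma adjusted p = 0.0347), and the groups did not overlap. A gene on the opposite strand, Gm12854, overlaps Uqcrh.

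The complex I members called were supernumerary subunits. Ndufb7, of the membrane arm (chromosome 8, 83566671 to 83571626), stood at 282, 249 and 293 in HFD+AOS-FMT libraries, against 358, 317 and 436 in control libraries. Its log2 difference was -0.42 (SE 0.10, limma adjusted p = 0.0387). Ndufa2, of the matrix arm (chromosome 18, 36742332 to 36744557), stood at 141, 111 and 150.2 in HFD+AOS-FMT libraries, against 187, 161 and 179.5 in control libraries. Its log2 difference was -0.40 (SE 0.10, limma adjusted p = 0.0416), and Tmco6 overlaps it on the opposite strand. HFD+AOS-FMT replicate 2 was the lowest of all 18 libraries for Atp5e, Atp5k, Ndufb7 and Ndufa2.

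**Figure D2:**
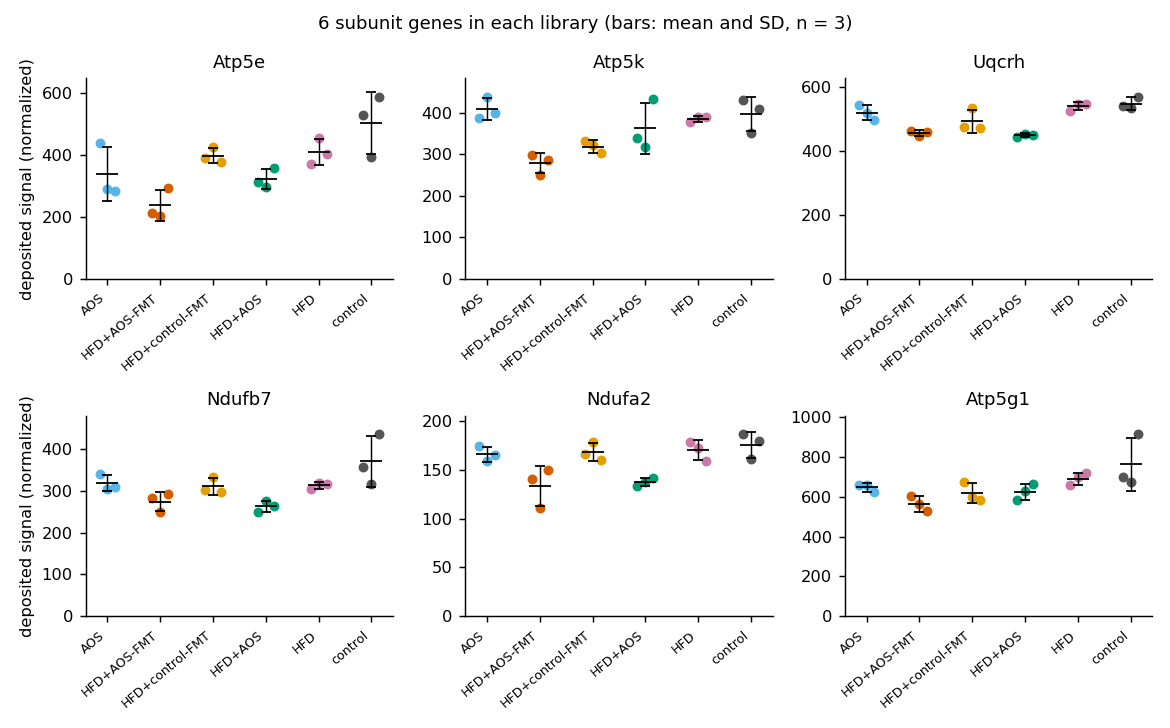
Deposited signal of the 6 genes called lower in HFD+AOS-FMT than in control, in each of 18 libraries by group, with the mean and SD of 3 libraries. For Atp5e the HFD+AOS-FMT libraries lie at 204 to 294 and the control libraries at 395 to 588; for Uqcrh the HFD+AOS and HFD+AOS-FMT libraries lie at 443 to 461, below all other libraries.

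By complex, the median log2 differences of HFD+AOS-FMT against control were -0.17 for complex I (37 genes tested), 0.04 for complex II (4), -0.18 for complex III (9), -0.21 for complex IV (18) and -0.17 for complex V (17). The median of all 85 members was -0.17, beside -0.06 for all genes tested. In complex V all 17 members had negative differences (63.1% of all genes did) and 3 passed, in complex I 2 of 37 and in complex III 1 of 9 passed, and in complexes II and IV none did (limma; 0 lower of 4 and 4 lower of 18 at an unadjusted p under 0.05). HFD+AOS-FMT and control did not overlap, with HFD+AOS-FMT lower, for 24 of 85 members and 10.1% of all genes, and with HFD+AOS-FMT higher for 2 members and 5.84% of all genes.

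The count of calls against control depended on single libraries. Without HFD+AOS-FMT replicate 1 or replicate 2 only Atp5e was called (0.25% and 0.517% of all genes lower). Without control replicate 2 the count was 22, where 4.64% of all genes were called lower and 1.89% higher, and without control replicate 3 it was 4 (Atp5e, Atp5g1, Atp5k and Uqcrh, where 1.72% of genes were called lower and 2.63% higher). Germ cell transcripts moved with this comparison, since the 8 markers other than Smcp summed to 0 in each HFD+AOS-FMT library and to 29.0 to 41.5 in control libraries, so that within these 2 groups they and the treatment cannot be told apart. With a term for them, which rests on HFD replicate 3 as the only HFD library without them, 0 members and 1 gene were called. The difference of Atp5e was then -1.06 (SE 0.34, limma adjusted p = 0.512), close to -1.08 without the term but with a larger error.

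HFD+AOS-FMT was set against HFD, the same diet alone. limma called 0 of 85 members, where it called 0.0748% of all genes lower and 0.0997% higher. At an unadjusted p under 0.05, 9 members (4.63% of all genes) were lower and 1 (8.63% of all genes) was higher. Groups did not overlap, with HFD+AOS-FMT lower, for 18 members (7.86% of all genes), and with HFD+AOS-FMT higher for 2 (17.3% of all genes). Some of the same ATP synthase and complex III genes had the smallest p-values. Atp5e was at 237 ± 49.9 in HFD+AOS-FMT and 410 ± 43.1 in HFD (SD, n = 3 each), with single HFD values of 370.3, 456 and 403, and its log2 difference was -0.80 (limma adjusted p = 0.0763). Atp5k was at 278 ± 24.5 in HFD+AOS-FMT and 385 ± 6.59 in HFD (log2 difference -0.47, limma adjusted p = 0.0833). Uqcrh was at 455 ± 8.37 in HFD+AOS-FMT and 539 ± 12.7 in HFD (log2 difference -0.25, limma adjusted p = 0.105). HFD+AOS-FMT and HFD did not overlap for any of the 3 genes.

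The count of this comparison depended on control replicate 3, which belongs to neither group and enters through the shared spread. Without it 6 members fell in HFD+AOS-FMT, where 1.48% of all genes were called lower and 3.41% higher: Atp5e (limma adjusted p = 0.0236), Atp5k (0.0226), Uqcrh (0.0183), Atp5g1 (0.0278), Ndufa2 (0.0433) and Ndufv3 (0.0265), a subunit of the NADH-binding module. Ndufv3 stood at 254, 209 and 285 in HFD+AOS-FMT, against 316, 331 and 312 in HFD. The median log2 difference of the 85 members was -0.07, beside 0.05 for all genes. Complex II again differed in sign, with a median of 0.04, where complexes I, III, IV and V had -0.08, -0.07, -0.09 and -0.06. Germ cell transcripts also moved with this comparison, since they were listed in HFD replicates 1 and 2 and summed to 0 in HFD+AOS-FMT. With the term for them the difference of Atp5e was -0.78 (SE 0.26, limma adjusted p = 0.559) and that of Uqcrh -0.27 (SE 0.09, adjusted p = 0.559).

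HFD+AOS was set against HFD to compare AOS given directly with the diet alone. limma called 0 of 85 members, where 0.357% of all genes were called lower and 0.465% higher. At an unadjusted p under 0.05, 13 members (6.86% of all genes) were lower and 0 (8.2% of all genes) were higher. Uqcrh came nearest the threshold. It stood at 443, 454 and 450.45 in HFD+AOS, against 525, 546 and 547 in HFD, without overlap (log2 difference -0.26, limma adjusted p = 0.0554). The complex I subunits Ndufa8, an intermembrane-space protein, and Ndufa2 followed. Ndufa8 was at 209 ± 6.87 in HFD+AOS and 244 ± 8.87 in HFD (log2 difference -0.23, limma adjusted p = 0.137), and Ndufa2 at 138 ± 4.57 in HFD+AOS and 170.1 ± 10.3 in HFD (log2 difference -0.30, limma adjusted p = 0.147).

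HFD+AOS and HFD did not overlap, with HFD+AOS lower, for 34 of 85 members, beside 12% of all genes, and with HFD+AOS higher for 5 members, beside 16.2% of all genes. The 34 were 16 of 37 tested in complex I, 1 of 4 in complex II and 5 of 9 in complex III. In complex IV they were 6 of 18 and in complex V 6 of 17. Of the 5 higher members, 2 belong to complex II and 1 each to complexes III, IV and V. The median log2 difference of the members was -0.11, beside 0.01 for all genes, and complex II had a median of 0.07. Without control replicate 3, limma called 6 members lower (2.54% of all genes lower and 4.3% higher): Uqcrh, the complex I subunits Ndufa7, Ndufa8, Ndufa11 and Ndufb7, and Cox4i1, the main form of complex IV subunit 4. Cox4i1 had a narrow spread, at 958, 963 and 971 in HFD+AOS against 1108, 1108 and 1118 in HFD. With array weights 8 members were called lower (3.2% of all genes lower and 4.62% higher), and in the 2 groups alone 2 were (1.28% lower and 1.74% higher). The germ cell transcripts of HFD replicates 1 and 2 summed to at most 0.18 in HFD+AOS, and with the term for them Uqcrh was at -0.28 (SE 0.09, limma adjusted p = 0.301) and 0 members were called.

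The effect of AOS on HFD was set against its effect without HFD in 1 interaction test. limma called 0 of 12031 genes and 0 members, with 3 of 85 members and 12.4% of all genes at an unadjusted p under 0.05 and a smallest adjusted p of 0.387 for Ndufa1, a complex I subunit.

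Between the FMT groups, HFD+AOS-FMT against HFD+control-FMT, limma called 0 members and 0% of all genes in either direction. At an unadjusted p under 0.05, 8 members (2.76% of all genes) were lower and 1 (4.26% of all genes) was higher. HFD+AOS-FMT lay wholly below HFD+control-FMT for 18 members (5.67% of all genes) and wholly above for 2 (12.4% of all genes). Atp5e had the smallest p, with 213, 204 and 294 in HFD+AOS-FMT against 391, 425 and 377 in HFD+control-FMT (log2 difference -0.76, limma adjusted p = 0.471). All HFD+AOS-FMT values lay below all HFD+control-FMT values. Ndufa2 (134 ± 20.5 in HFD+AOS-FMT and 168 ± 9.30 in HFD+control-FMT, limma adjusted p = 0.501) and Ndufa13, a subunit of the matrix arm's junction with the membrane (434 ± 26.1 in HFD+AOS-FMT and 534 ± 65.0 in HFD+control-FMT, limma adjusted p = 0.545), came next. The members' median log2 difference was -0.06, beside 0.04 for all genes.

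In HFD+control-FMT against HFD, limma called 0 members and 0% of all genes. Lower at an unadjusted p under 0.05 were 2 members (1.68% of all genes) and higher 0 (2.82% of all genes), and groups did not overlap for 6 lower (6.38% of all genes) and 2 higher members (9.07% of all genes). The 3 smallest p-values were those of Atp5k (318 ± 15.0 in HFD+control-FMT and 385 ± 6.59 in HFD), Uqcrh (492 ± 35.3 in HFD+control-FMT and 539 ± 12.7 in HFD) and Cox8b (14.8 ± 17.2 in HFD+control-FMT and 46.0 ± 24.3 in HFD), each with limma adjusted p = 0.999648. The members' median was -0.01, beside 0.01 for all genes.

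HFD against control, the effect of the diet, gave 0 members called by limma and 0% of all genes. At an unadjusted p under 0.05, 9 members (14.5% of all genes) were lower and 0 (2.93% of all genes) were higher. HFD lay wholly below control for 8 members (12.6% of all genes) and wholly above for 2 (3.03% of all genes). The smallest p was that of Ndufs8, an iron-sulfur core subunit of complex I, at 225 ± 9.41 in HFD and 268 ± 29.8 in control (log2 difference -0.25, limma adjusted p = 0.235). The complex IV genes Cox6c (1107 ± 70.7 in HFD and 1400 ± 281 in control, limma adjusted p = 0.259) and Cox5a (602 ± 49.1 in HFD and 681 ± 33.8 in control, limma adjusted p = 0.264) followed. The members' median of -0.09 was close to that of all genes, -0.10, and without control replicate 3 both were nearer 0, at -0.0032 for the members and -0.02 for all genes. With quantile normalization the members' median minus that of all genes was -0.07, against 0.01 as deposited.

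AOS against control likewise gave 0 members called, where limma called 0.0249% of all genes lower and 0.00831% higher. The unadjusted p was under 0.05 for 8 lower members (10.1% of all genes) and 0 higher ones (2.56% of all genes). AOS lay wholly below control for 6 members (10.1% of all genes) and wholly above for 0 (3.07% of all genes). Atp5e had the smallest p among the members. It stood at 438, 289 and 285 in AOS libraries, against 528, 395 and 588 in control libraries, so that AOS replicate 1 lay within the control range (log2 difference -0.59, limma adjusted p = 0.345). The low-expressed isoform Cox4i2 (0.987 ± 0.440 in AOS and 2.01 ± 0.915 in control, limma adjusted p = 0.368) and the complex I subunit Ndufb5 (199 ± 7.05 in AOS and 217 ± 8.13 in control, limma adjusted p = 0.373) came next. The members' median was -0.10, beside -0.09 for all genes.

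**Figure D3:**
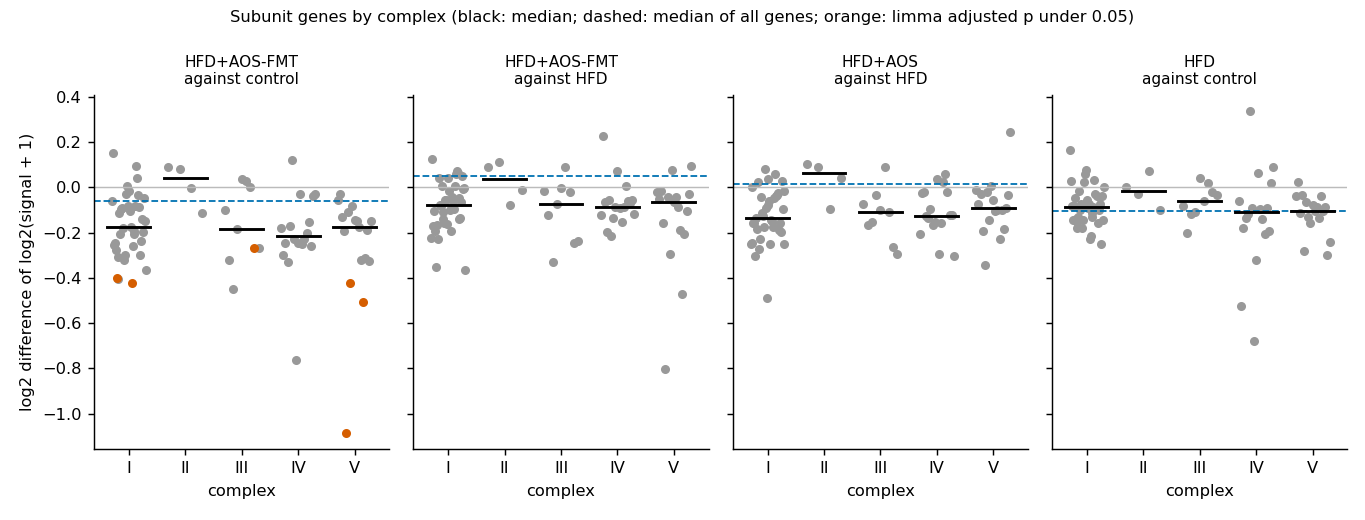
Log2 difference of each tested subunit gene by complex in 4 comparisons (Cox8b, which varied most, is not drawn); black lines are medians of a complex, the dashed line is the median of all genes, and orange points passed limma's adjusted threshold of 0.05. Orange points appear in HFD+AOS-FMT against control alone, where 6 genes passed, and the complex II medians lie at or above the dashed line in all 4 comparisons shown except HFD+AOS-FMT against HFD.

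Over all 6 groups, limma's F test called 0 members (1.02% of all genes called), with the smallest adjusted p for Atp5e (0.0519), Uqcrh (0.0559) and Atp5k (0.0597). Without control replicate 3 it called 6 members, beside 6.36% of all genes. Atp5e averaged 337 in AOS, 237 in HFD+AOS-FMT, 397 in HFD+control-FMT, 323 in HFD+AOS, 410 in HFD and 504 in control. That order, with HFD+AOS-FMT lowest and control highest, has neighbours that do not differ beyond their spread, HFD+AOS and AOS among them. Summed over complex I, the signal was lowest in HFD+AOS (9476 ± 433) and HFD+AOS-FMT (9733 ± 486) and highest in control (11085 ± 1300.5, SD, n = 3 each). The control mean rests on replicate 3, at 12535, since the other control libraries averaged 10359, below the 10439 ± 504 of HFD+control-FMT. The group means of complex II were closest together, with 1182 ± 11.1 in HFD+AOS-FMT as the highest and 1151 ± 20.6 in HFD as the lowest.

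Differences are also given by subunit class, assigned from textbook knowledge after member values had been seen. In HFD+AOS-FMT against control the 22 core subunits had a median log2 difference of -0.09 and the 53 supernumerary subunits one of -0.23. For HFD+AOS set against HFD the medians were -0.03 for core and -0.14 for supernumerary subunits, while HFD+AOS-FMT set against HFD gave -0.02 for core and -0.10 for supernumerary subunits. By these classes 5 of the 6 genes called against control are supernumerary, Atp5e among them, and Atp5g1 is core. That count depends on the class of Atp5e, the epsilon subunit of the stalk. With Atp5e counted as core, both Atp5e and Atp5g1 are core. Counting Atp5e and Atp5h as core, as their place beside the catalytic head would allow, gave core medians of -0.10, -0.04 and -0.02 in these comparisons, with supernumerary medians of -0.23, -0.14 and -0.10.

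Supernumerary subunits tend to be short proteins, and differences were next set against coding length. Across 83 members with a coding length, Spearman's rho between length and log2 difference was 0.44 for HFD+AOS over HFD, 0.59 for HFD+AOS-FMT over HFD and 0.44 in HFD+AOS-FMT against control. The same over 11866 genes was 0.21, 0.21 and 0.19. Between the FMT groups the members had 0.47 and all genes 0.26, and in AOS against control 0.36 and -0.03. In HFD+control-FMT against HFD these were 0.18 and -0.0069, and in HFD against control 0.17 and 0.0027. Genes share libraries and are not independent replicates, so these values are descriptions. The longest transcript was looked at before the coding length. With it the members' values were 0.39 for HFD+AOS over HFD, 0.44 for HFD+AOS-FMT over HFD and 0.35 in HFD+AOS-FMT against control. In HFD+AOS-FMT against HFD, the 42 members with coding lengths up to the median of 411 bases had a median of -0.13 and the 41 longer ones -0.02, beside -0.06 for 674 genes of all kinds in the short range and 0.06 for the longer genes. Atp5e is among the shortest, with 156 coding bases, and Atp5k has 213, whereas Ndufv3, with 1404, was among those called against HFD only with control replicate 3 left out. The part that length has in the differences was not tested.

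**Figure D4:**
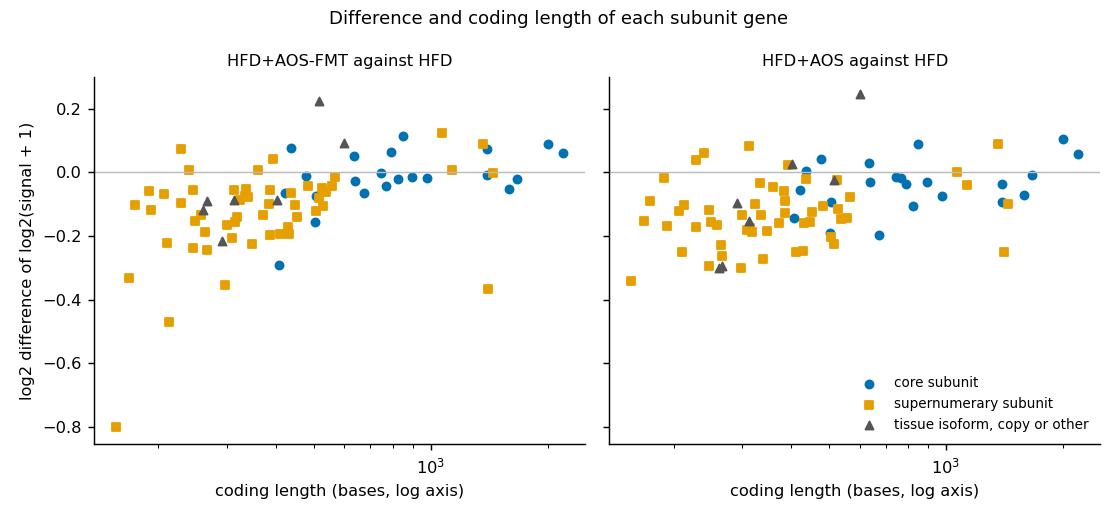
Log2 difference of 82 subunit genes (Cox8b not drawn) against coding length in bases (log axis), for HFD+AOS-FMT over HFD (left) and HFD+AOS over HFD (right), by subunit class. Genes up to about the median of 411 bases lie mostly below 0, with Atp5e lowest at -0.80 in the left panel. The core subunits, mostly longer, have medians of -0.02 (left) and -0.03 (right). Of 22 core subunits 15 (left) and 16 (right) lie below 0, where 37.6% and 46.9% of all genes had negative differences.

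Scaling bore on these medians. Quantile normalization moved the median of all genes by up to 0.12 (HFD against control). Relative to all genes, the members' median in HFD+AOS-FMT against HFD was -0.13 as deposited and -0.02 after it, that of HFD+AOS over HFD -0.12 and -0.05, and that of HFD+AOS-FMT over control -0.11 and -0.08. For HFD over control it was 0.01 as deposited and -0.07 after, and for AOS over control -0.01 and -0.07, both larger after quantile normalization than the gap of HFD+AOS-FMT over HFD. After it 6 members were called against control, 5 lower (1.33% of all genes) and 1 higher (1.95% of all genes), the last being Sdhb of complex II, and Atp5l of complex V was also lower. Atp5e, Atp5k, Ndufb7 and Ndufa2 were still called lower, and Uqcrh (adjusted p = 0.183) and Atp5g1 (0.0683) were not. Sdhb and Atp5l are named here after their values were seen.

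Complex IV has tissue isoforms, and the kidney libraries were dominated by the widely expressed ones. Cox4i2, the lung and hypoxia form, was 0.107% of the Cox4i1 and Cox4i2 signal (median of 18 libraries) and Cox6a2, the muscle form, 0.0402% of Cox6a1 and Cox6a2. Ndufa4l2, a hypoxia-induced relative of Ndufa4, was 0.265% of their sum. Cox7a1, the heart and muscle form (chromosome 7, 30184144 to 30186078), was more abundant, at 10.3% to 17.9% of Cox7a1 and Cox7a2. The 3 genes for the ATP synthase c subunit shared their signal as medians of 36.8% for Atp5g1, 20.1% for Atp5g2 and 43.6% for Atp5g3.

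Cox8b, the isoform of heart, muscle and brown fat, was the member that varied most among those averaging above 10. It stood at 4.49, 16.25 and 11.46 in AOS, 25.9, 73.9 and 20.5 in HFD+AOS-FMT, 5.26, 4.61 and 34.7 in HFD+control-FMT, 1.40, 4.66 and 65.4 in HFD+AOS, 70.2, 21.6 and 46.3 in HFD, and 13.4, 18.3 and 4.95 in control. Within HFD+AOS it thus spanned nearly the whole range of the study, and no comparison called it. Its level moved with Ucp1, the uncoupling protein of brown fat, and with Cidea, a lipid droplet protein of brown fat, with Spearman's rho of 0.89 and 0.94 over 18 libraries, which share their groups. Ucp1 was at 73.6 in HFD+AOS replicate 3 and 62.5 in HFD+AOS-FMT replicate 2, which were also the libraries highest for Cox8b within their groups.

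The 6 brown fat markers summed to 10.3 to 19.9 in AOS, 24.2 to 96.8 in HFD+AOS-FMT, 7.91 to 39.8 in HFD+control-FMT, 8.84 to 97.6 in HFD+AOS, 24.4 to 63.6 in HFD and 12.02 to 24.0 in control. Of these 6 genes Ppargc1a is also a kidney gene, at 5.62 to 10.44 in every library. The 8 skeletal and heart muscle markers were at or near 0, with no value above 1.32 and Myh4 at 0 throughout. Cox7a1 followed Ucp1 less closely (rho 0.50, and 0.71 without control replicate 3). What part brown fat RNA has in the signal of these isoforms was not tested.

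**Figure D5:**
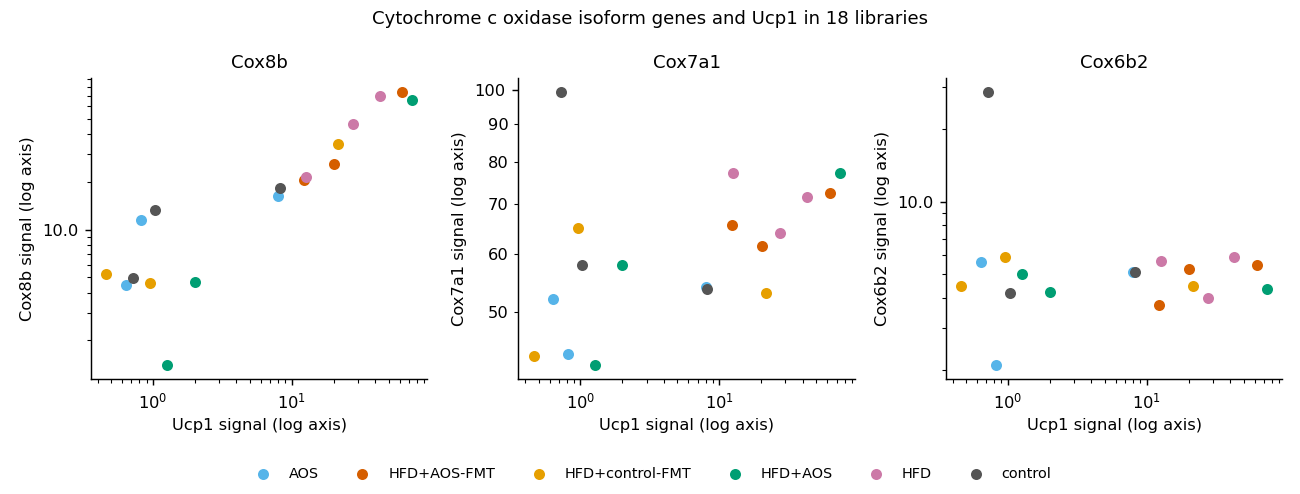
Deposited signal of Cox8b, Cox7a1 and Cox6b2 against that of Ucp1 in 18 libraries, coloured by group (log axes). Cox8b climbs with Ucp1 to 73.9, Cox7a1 does so less closely, and Cox6b2 is flat at 2.10 to 5.91 apart from control replicate 3 at 28.6.

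Cox6b2, the testis form of subunit 6b, was at 28.6 in control replicate 3 and at 2.10 to 5.91 in the other 17 libraries. Control replicates 1 and 2, whose germ cell markers summed to 29.0 and 29.35, had Cox6b2 values of 4.20 and 5.12.

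Other mitochondrial genes give the setting. Of all genes tested, limma called 1.33% lower and 0.989% higher in HFD+AOS-FMT against control. In the 6 other comparisons it called at most 0.357% lower and 0.465% higher, the latter in HFD+AOS over HFD. At an unadjusted p under 0.05, 12.6% of all genes were lower and 6.41% higher in HFD+AOS-FMT against control. The 6 others had 1.68% to 14.5% lower and 2.56% to 8.63% higher. Of 48 assembly factors tested, 1 fell in HFD+AOS-FMT against control (Cox19, a copper chaperone of complex IV assembly, 35.8 ± 1.13 in HFD+AOS-FMT and 46.4 ± 1.78 in control, limma adjusted p = 0.0126) and 0 were called in the 6 other comparisons (1 to 5 lower and 1 to 2 higher at an unadjusted p under 0.05). Of 24 genes of ubiquinone synthesis and electron carriers, 1 rose in HFD+AOS-FMT against control, Coq10b, a ubiquinone-binding protein (49.9 ± 5.15 in HFD+AOS-FMT and 29.6 ± 5.18 in control, limma adjusted p = 0.0135), and 0 were called in the 6 others (1 to 3 lower and 0 to 2 higher at an unadjusted p under 0.05). Of 19 regulators of mitochondrial biogenesis, Ppara, the fatty acid sensing nuclear receptor, rose in HFD+AOS-FMT against control (17.1 ± 0.870 in HFD+AOS-FMT and 10.7 ± 1.64 in control, limma adjusted p = 0.0127) and in HFD+AOS over HFD (17.9 ± 3.06 in HFD+AOS and 11.0 ± 0.694 in HFD, limma adjusted p = 0.0225). Ppargc1a, the coactivator of that programme, was at 7.89 ± 1.78 in HFD+AOS-FMT and 8.59 ± 1.74 in control and was not called (limma adjusted p = 0.738).

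Citric acid cycle genes, whose products feed complexes I and II, had a median log2 difference of 0.04 in HFD+AOS-FMT against control and of 0.05 in HFD+AOS-FMT against HFD. The medians of all genes were -0.06 and 0.05. limma called 0 of the 18 citric acid cycle genes in any of the 7 comparisons. At an unadjusted p under 0.05 in HFD+AOS-FMT against control, 4 were higher (6.41% of all genes) and 0 lower (12.6% of all genes). Fh1, fumarate hydratase, was at 168 ± 7.16 in HFD+AOS-FMT and 147 ± 6.14 in control (limma adjusted p = 0.110). Cytosolic ribosomal protein genes, also short, had a median of -0.30 in HFD+AOS-FMT against control, beside -0.06 for all genes. Of 77, limma called 1 lower (Rpl41), where it called 1.33% of all genes lower. At an unadjusted p under 0.05, 0 were higher (6.41% of all genes) and 47 lower (12.6% of all genes), a larger share than the 32 of 85 members. In HFD+AOS-FMT against HFD the ribosomal median was -0.10, beside 0.05 for all genes, with 0 called. At an unadjusted p under 0.05, 2 ribosomal genes were lower there (4.63% of all genes) and 0 higher (8.63% of all genes).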

How the data were processed

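Messenger RNA was measured in 18 mouse kidney libraries, 3 in each of 6 groups assigned from the treatment labels. The submitters' processing notes name Bowtie (0.12.2) and the mm10 build. RNA was taken with Trizol and a column kit, per the labels' protocols. The deposited table gives 1 normalized signal value per gene and library; how the authors counted and normalized it, and with which annotation, is not stated in any source used here. Depth is unknown. Of 19545 table rows, 26 symbols turned into dates and 1 repeated entry were left out, which left 19518 genes.

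Values were tested as log2(value + 1) with limma 3.58.1 (R 4.3.3; trend and robust estimation, 12 residual degrees of freedom, two-sided), on 12031 genes that reached a value of 1 in 3 libraries or more, with Benjamini-Hochberg adjustment within each comparison and a threshold of 0.05. The procedure was tested on simulated data. Of 50 genes changed in HFD+AOS-FMT against control, it recovered 10% at a log2 change of 0.25 and 52% at 0.5. At 1 and 2 it recovered 88% and 94%, with 8 false calls among 12031 genes at each size. Small differences can thus go uncalled. At 0.25 the false calls outnumbered the recovered genes, and at every size their share of the calls was above the threshold of 0.05. A call of a small difference can thus be false. The members and lists were chosen with earlier results of these data known. Members named are the 2 highest of each complex, those called, the 3 with the smallest p per comparison and the isoform families. The promoters shown, the subunit classes and the length comparison were chosen after values were seen.

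Alternatives were the pseudocount, the filter, quantile normalization, plain variance estimation, a fit of each pair of groups, array weights, the replicate number as a block, each library left out and a germ cell term. Coding lengths, coordinates and overlaps are from GENCODE M21 on GRCm38 (mm10), where 87 of 88 members matched. Pseudogene copies were matches of at least 95% identity over 80% of the coding sequence, found for 18 of 85 members searched. Promoters are from RefSeq, GRCm38.p6.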

Additional observations from a re-analysis of the deposited data

How the results depend on the processing

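In 27 alternative settings, HFD against control, AOS against control, HFD+control-FMT against HFD and HFD+AOS-FMT against HFD+control-FMT stayed at 0 members called. HFD+AOS against HFD gave 1 with the filter at 5, 2 in the 2 groups alone, 8 with array weights and 0 to 6 with a library left out, 6 without control replicate 3. In the order named, these settings called 0.554%, 1.28%, 3.2% and 2.54% of all genes lower. They called 0.743%, 1.74%, 4.62% and 4.3% higher. HFD+AOS-FMT against HFD gave 1 in the 2 groups alone, 5 with array weights and 0 to 6 with a library left out, 6 without control replicate 3. Of all genes, these settings called 0.673%, 1.9% and 1.48% lower and 0.872%, 3.42% and 3.41% higher. HFD+AOS-FMT against control gave 0 in the 2 groups alone, 4 with array weights, 8 with the filter at 5 and 0 with the germ cell term. With a library left out it gave 1 to 22, 22 without control replicate 2. In the order named, 0.0426%, 1.98%, 1.92%, 0% and 4.64% of all genes were called lower. The shares called higher were 0%, 2.31%, 1.52%, 0.00831% and 1.89%. The F test gave 1 with log2(value + 0.1), 1 without the filter, 2 with the filter at 5, 1 after quantile normalization, 6 with array weights and 0 to 6 with a library left out. Without control replicate 3 it gave 6, beside 6.36% of all genes. The shares of all genes in its other settings are not given here. The planned germ cell term could not be fitted, since Smcp is listed in every library, and the term without Smcp was chosen after seeing the data.

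With the replicate number as a block, 2 members (Atp5e and Atp5k) were called in HFD+AOS-FMT against control. There 0.848% of all genes were called lower and 0.648% higher. No other comparison changed its count of members called. The labels do not say what a replicate number shares. Deviations of same-numbered libraries correlated at -0.16 to 0.26, with medians of 0.01, 0.01 and -0.03. Such low values cannot settle whether the numbers pair the libraries.

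Of 647 values of named members under alternatives, 554 kept their side of the threshold, 76 lost it, 17 gained it and 0 changed sign. Most of the 647 were not called at the start and could not lose a call. The 76 losses were all among the genes called in HFD+AOS-FMT against control. Of 27 settings, Ndufa2 lost its call in 21, Atp5g1 in 20, Ndufb7 in 18, Uqcrh in 9, Atp5k in 6 and Atp5e in 2. The settings show that calls changed with scaling and with single libraries, and the causes of the losses were not tested. Unknown depth limits the low isoforms most.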

Other observations

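Single libraries held many of the extremes among the 85 tested members. HFD+AOS-FMT replicate 2 was the lowest library for 23 members and HFD+AOS replicate 1 for 21, and control replicate 3 was the highest for 62. With Kap left out of the totals, the members took 7.95% of signal in control replicate 3 and 6.73% to 7.54% in the other 17 libraries. Ndufa7, a complex I subunit, was at 249 in control replicate 3 and at 121 to 173 in the others.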
